A study of Mus musculus with 28 samples.

Results

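The 38 genes described here encode parts of the lysosome other than the cathepsin proteases: 7 membrane proteins, 4 transporters and channels, 10 glycosidases, 4 sulfatases, 5 sphingolipid hydrolases or their helper proteins, 3 genes of cholesterol and neutral lipid clearance, and 5 other enzymes and regulators. They were taken from a list of symbols that was drawn up with earlier results of these data known. The shares of called genes given below are therefore not those of a list made blind to the data. Each of the 38 had a single identifier among the 55414 genes of the deposited tables, and 33 had enough counts to be among the 12423 genes tested. The other 5 (Ctns, Slc11a1, Naglu, Manba and Sgsh) were measured but fell below the filter on low counts, and their values are given separately.

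RNA of whole mouse brain was measured in 28 samples by QuantSeq, a protocol that reads a tag near the 3′ end of each transcript. The model was cuprizone, a copper chelator given to mice that kills oligodendrocytes and strips myelin from axons, after which new myelin forms once it is withdrawn. The 3 control groups carried floxed TNFR1 alleles (TNFR1ff, backcrossed onto C57BL/6): naive mice (CPZ0), mice at the peak of demyelination (CPZ5) and mice in remyelination (CPZ6+1). The fourth group, mgTNFR1KO in remyelination (CPZ6+1), also carried Cx3cr1-CreER, a Cre recombinase that acts after tamoxifen, and had lost TNFR1, a receptor for tumour necrosis factor, from microglia. The same floxed alleles were thus present in all 4 groups. The Cx3cr1 locus that drives Cre is active in microglia and in some other myeloid cells. The labels give no age and do not say whether the control mice received tamoxifen. There were 7 samples per group, and nothing says that each was a separate animal, so the p-values measure the spread between these samples.

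Lysosomes are acidic compartments in which hydrolases take apart proteins, sugar chains and lipids delivered by phagocytosis, endocytosis and autophagy. Myelin is rich in cholesterol and in galactosylceramide and its sulfated form, sulfatide. Microglia that engulf myelin debris hand its lipids to this machinery: arylsulfatase A removes the sulfate, galactosylceramidase removes the galactose, saposins present the lipids to the enzymes, and the proteins NPC1 and NPC2 export the cholesterol. The transcription factor TFEB, with its relatives, switches on many lysosomal genes through a palindromic promoter element called CLEAR, which contains an E-box.

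Levels are in CPM, counts scaled to the size of each library. A transcript gives 1 tag whatever its length, so levels can be set side by side between genes. Differences are log2 fold changes with their standard error (SE) or 95% interval. A gene was called higher or lower at an adjusted p below 0.05. Every adjusted p is from edgeR's quasi-likelihood fit, adjusted by Benjamini and Hochberg's method over all 12423 genes, unless another tool or setting is named. A setting that leaves out libraries or the filter was adjusted over the genes it tested, 12581 without naive library 1, 12515 without naive library 1 and knockout library 1, and 26337 with no filter. Library totals ranged from 1522913 to 3137254 counts, so a count of 3 was worth 0.956 to 1.97 CPM, and genes near that level were imprecise. Naive library 1 and knockout library 1 stood apart in the share of the most abundant gene (ENSMUSG00000119584.1, 25.54% and 1.33% of their counts). The targeted gene, Tnfrsf1a, ranged from 16.5 to 30.4 CPM in the knockout and from 15.6 to 28.8 CPM in the remyelination libraries. A 3′ tag may lie outside the deleted part, and other brain cells use the gene, so this level does not check the deletion.

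Promoter sequences were looked up first, because the genes are known as a set that a shared factor can drive. RefSeq promoter windows of the build GRCm38.p6, from 250 bases before to 50 bases after the start site, were found for 35 of the 38 genes. Motifs were searched as fixed letters on both strands. The CLEAR core TCACGTGA, which contains the E-box CACGTG, was in the window of 2 of the 35 genes, Cln3 and Mcoln1 (5.71%, against 1.12% of all genes with a window). The E-box itself was in 8 of the 35 (22.9%, against 8.09%): Arsa, Cln3, Gaa, Glb1, Lamp1, Mcoln1, Naglu and Sgsh. Lamp1 held 4 copies of it. The M-box core TCATGTGA, a related element bound by the TFEB family, was in the windows of Grn, Ppt1 and Tpp1 (8.57%, against 1.15%). The PU.1 core GAGGAAGT, an element of the main myeloid transcription factor, was in that of Gusb (2.86%, against 3.69%). The AP-1 element TGANTCA was in those of Cd68, Glb1, Laptm4a, Neu1 and Psap (14.3%, against 8.97%). These matches are descriptions of letters and not measured binding sites.

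The windows of 3 genes that rose in demyelination and held a motif (Cd68, Gusb and Grn) are shown with those of the 2 genes that held the CLEAR core (Mcoln1 and Cln3), so that they can be set against the values that follow. All are written 5′ to 3′ on the strand of the gene, with the matches in capitals. Cd68 (chr11:69666121-69666420, minus strand) held 2 AP-1 elements. Gusb (chr5:130003000-130003299, minus strand) held the PU.1 core on the opposite strand, after the start site. Grn (chr11:102430257-102430556, plus strand) held the M-box core on the opposite strand. Mcoln1 (chr8:3500269-3500568, plus strand) and Cln3 (chr7:126583187-126583486, minus strand) each held 1 CLEAR core and 1 further E-box. Cln3 has a second window, which held none of the motifs. Of the other genes that rose, Laptm5 and Man2b1 held none of the 5 motifs in this window.
Cd68: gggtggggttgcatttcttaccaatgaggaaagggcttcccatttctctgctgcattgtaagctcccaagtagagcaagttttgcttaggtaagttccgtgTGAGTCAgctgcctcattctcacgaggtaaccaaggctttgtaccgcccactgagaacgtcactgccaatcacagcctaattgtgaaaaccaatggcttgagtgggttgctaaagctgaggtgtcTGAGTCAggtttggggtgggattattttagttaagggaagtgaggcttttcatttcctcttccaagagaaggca
Gusb: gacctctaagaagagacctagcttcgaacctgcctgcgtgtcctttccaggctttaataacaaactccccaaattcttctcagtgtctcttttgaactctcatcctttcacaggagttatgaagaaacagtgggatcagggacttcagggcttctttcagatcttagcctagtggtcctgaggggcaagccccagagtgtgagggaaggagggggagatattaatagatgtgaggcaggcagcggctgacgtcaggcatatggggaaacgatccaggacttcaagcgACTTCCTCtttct
Grn: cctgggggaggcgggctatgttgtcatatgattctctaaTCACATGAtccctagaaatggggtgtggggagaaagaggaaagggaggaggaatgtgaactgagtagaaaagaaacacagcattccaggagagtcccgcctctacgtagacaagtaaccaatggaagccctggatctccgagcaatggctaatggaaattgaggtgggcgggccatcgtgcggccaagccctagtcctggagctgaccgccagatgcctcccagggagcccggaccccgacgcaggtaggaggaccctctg
Mcoln1: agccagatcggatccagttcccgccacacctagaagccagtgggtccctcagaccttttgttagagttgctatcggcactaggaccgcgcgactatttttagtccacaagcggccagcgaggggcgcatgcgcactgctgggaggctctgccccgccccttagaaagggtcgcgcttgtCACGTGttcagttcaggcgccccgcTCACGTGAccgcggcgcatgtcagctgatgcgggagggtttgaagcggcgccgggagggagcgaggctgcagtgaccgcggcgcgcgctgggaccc
Cln3: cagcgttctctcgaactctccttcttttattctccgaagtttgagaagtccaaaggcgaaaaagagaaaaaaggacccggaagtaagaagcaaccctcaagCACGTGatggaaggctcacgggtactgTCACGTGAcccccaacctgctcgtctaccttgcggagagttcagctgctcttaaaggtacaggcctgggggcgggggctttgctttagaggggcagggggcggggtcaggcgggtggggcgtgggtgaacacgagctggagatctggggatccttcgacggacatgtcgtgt

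At the peak of demyelination, 5 of the 33 tested genes were higher than in naive brain and 0 were lower (15.2% higher, against 1.30% of all genes tested, while 0.700% of all genes tested were lower). They were the membrane proteins Cd68 and Laptm5, the glycosidases Gusb and Man2b1, and the regulator Grn. None of the 11 tested sulfatases, sphingolipid genes and genes of cholesterol and neutral lipid clearance passed the test. The median log2 fold change of the 33 genes was 0.25, against -0.01 over all genes tested, and 29 of the 33 values were above 0. At an unadjusted p below 0.05 there were 8 of the 33, all higher, against 13.3% of all genes tested. In 3 of the 33 genes (Cd68, Gusb and Man2b1) every demyelination library lay above every naive library, and the 2 groups did not overlap in 1.38% of all genes tested.

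Cd68 (ENSMUSG00000018774.14), a heavily glycosylated membrane protein of late endosomes and lysosomes used as a sign of phagocytic activity, changed most. Its naive libraries ran from 1.39 to 3.85 CPM with a median of 2.53, which were 2 to 7 counts each. The demyelination libraries ran from 9.16 to 23.0 CPM with a median of 15.9. The groups did not overlap, and the lowest demyelination library was still more than the highest naive one. Cd68 was 2.67 higher on the log2 scale (SE 0.288, adjusted p = 7.19e-09). Its naive level was near the worth of 3 counts, so the size of this rise is less certain than its direction. A filter of at least 5 CPM in at least 7 libraries left the same number of genes, 12423, and no naive library reached 5 CPM for Cd68. Cd68 was thus tested only through the groups where it is high. Its call and its lack of overlap in both comparisons with naive brain are not independent of that filter. Cd68 is expressed in the brain by microglia and other macrophages, and in whole-brain RNA more cells of a type and more RNA per cell cannot be told apart. Of 13 microglial marker genes, 10 were also higher at the peak of demyelination, while 1.30% of all genes tested were higher. The summed level of the 13 was 199 to 275 CPM in the naive libraries and 424 to 605 CPM at the peak. C1qa, among the 10 called, had at most 3.88 CPM in naive libraries, so its call, too, is not independent of the filter. The other 3 were not called, and 2 of them had values below 0: P2ry12 (19.6 ± 6.38 and 13.7 ± 2.47 CPM, a log2 fold change of -0.49, adjusted p = 0.255) and Tmem119 (9.35 ± 1.53 and 8.29 ± 2.36 CPM, -0.18, adjusted p = 0.83). The third was Aif1 (1.10, adjusted p = 0.121). The summed level does not show these opposite values. The markers' part in the rise of the lysosomal genes was not tested.

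Laptm5 (ENSMUSG00000028581.18), a lysosomal membrane protein of haematopoietic cells and microglia, ran from 16.0 to 34.9 CPM in naive libraries (median 19.8). In demyelination it ran from 33.3 to 61.7 CPM (median 58.5). Naive library 7 was the highest of its group, and 6 of the 7 demyelination libraries lay above it. The rise was 1.27 on the log2 scale (SE 0.182, adjusted p = 5.44e-06). The other 5 tested membrane proteins (Lamp1, Lamp2, Laptm4a, Scarb2 and Gpr137b) did not pass. Lamp1, an abundant structural protein of the lysosomal membrane, had means of 364 ± 36.0 and 369 ± 56.4 CPM (SD, n = 7 each). Lamp2, its close relative, had 52.7 ± 10.1 and 56.7 ± 7.31 CPM.

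Gusb (ENSMUSG00000025534.18) encodes beta-glucuronidase, which trims glycosaminoglycans. Its naive libraries ran from 3.18 to 15.0 CPM (median 10.2) and its demyelination libraries from 20.4 to 31.8 CPM (median 24.4). All 7 demyelination libraries lay above the highest naive library, and Gusb was 1.26 higher on the log2 scale (SE 0.204, adjusted p = 5.77e-05). Man2b1 (ENSMUSG00000005142.11), an alpha-mannosidase that degrades the sugar chains of glycoproteins, changed by less. It ran from 37.6 to 49.0 CPM in naive libraries (median 42.2) and from 49.2 to 66.5 CPM in demyelination (median 61.6). The groups touched but did not overlap, and the rise of 0.45 (SE 0.115, adjusted p = 0.0202) missed the threshold when no filter on low counts was used (adjusted p = 0.0723, range over 12 alternatives 0.00983 to 0.0723). Hexa, which encodes the alpha chain of beta-hexosaminidase, had a naive mean of 40.1 ± 7.66 CPM and a demyelination mean of 54.7 ± 7.26 CPM. Its log2 fold change of 0.45 (SE 0.134) did not pass in edgeR (adjusted p = 0.0722) and passed in DESeq2 (adjusted p = 0.0488, range over the alternatives 0.0488 to 0.111). The other 5 tested glycosidases (Gaa, Glb1, Fuca1, Neu1 and Idua) did not pass.

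Grn (ENSMUSG00000034708.13) encodes progranulin, a secreted protein taken up into lysosomes that supports their hydrolases. Its naive libraries ran from 6.57 to 25.5 CPM (median 16.5) and its demyelination libraries from 15.9 to 47.9 CPM (median 34.6). Of the 7 demyelination libraries, 6 lay above the highest naive one and 1 lay within the naive range. Grn was 1.21 higher on the log2 scale (SE 0.242, adjusted p = 0.00146).

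**Figure D1:**
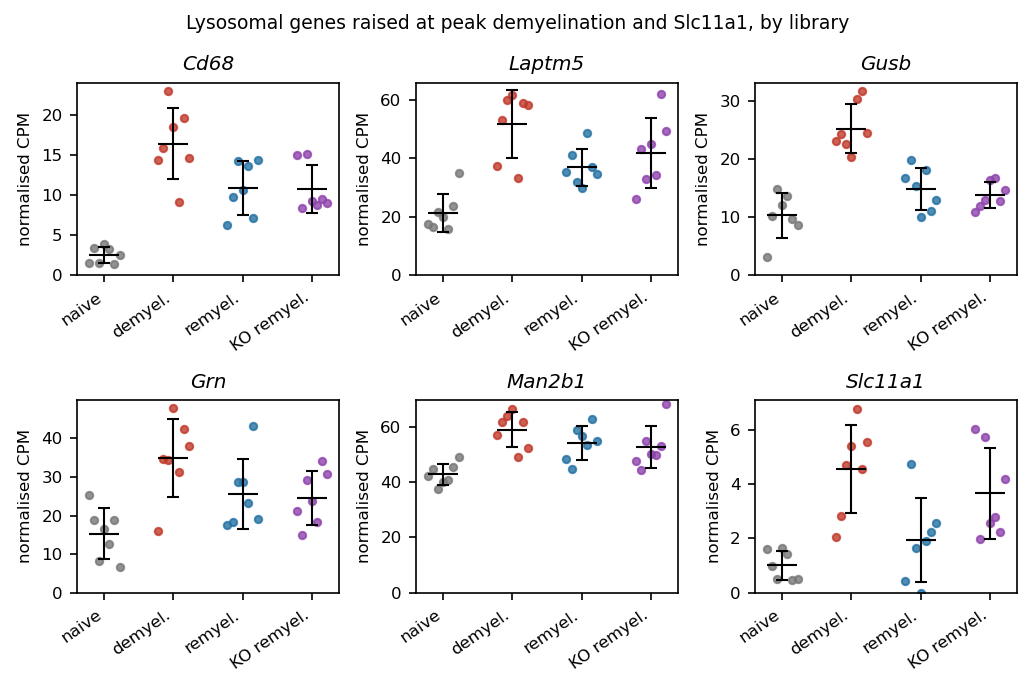
Level of 6 lysosomal genes in each of the 28 libraries, in CPM on linear axes, by group. Points are libraries, and the bar with whiskers is the mean ± SD of 7 libraries. Cd68, Gusb, Man2b1 and Slc11a1 in demyelination lie wholly above naive, and Slc11a1, which fell below the filter on low counts, reaches at most 6.75 CPM.

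The genes that act directly on myelin lipids did not pass the test, and their intervals bound how far they can have moved. Oligodendrocyte transcripts fell in the same libraries, and all 9 marker genes of these cells were lower in demyelination, with sums of 6211 to 7187 CPM in naive and 2572 to 3641 CPM at the peak. Their part in these levels was not tested. Galc (ENSMUSG00000021003.11), the galactosylceramidase lost in Krabbe disease, ran from 17.1 to 31.8 CPM in naive (median 20.2) and from 15.4 to 31.2 CPM in demyelination libraries (median 18.7). The 2 groups covered almost the same range, with a log2 fold change of 0.00 (95% interval -0.38 to 0.38, adjusted p = 0.998). Arsa, the arylsulfatase A that removes the sulfate of sulfatide, ran from 10.3 to 35.2 CPM (median 20.7) in naive and from 14.1 to 35.9 CPM (median 18.7) in demyelination libraries. These too overlapped throughout, with a log2 fold change of -0.19 (95% interval -0.66 to 0.29, adjusted p = 0.797).

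Psap (ENSMUSG00000004207.15), the precursor of the saposins, was by far the most abundant of the 38 genes and took 28.5 to 44.3% of their summed CPM in any library. It ran from 1056 to 1671 CPM in naive (median 1280) and from 916 to 2016 CPM in demyelination libraries (median 1631). The demyelination libraries spread on both sides of the naive range, and the log2 fold change was 0.23 (95% interval -0.04 to 0.50, adjusted p = 0.48). Gm2a, a helper protein of ganglioside breakdown, had 44.1 ± 7.80 and 56.8 ± 5.43 CPM, a log2 fold change of 0.36 (SE 0.128, adjusted p = 0.159). Smpd1, the acid sphingomyelinase, had 79.1 ± 7.86 and 94.2 ± 23.6 CPM, a log2 fold change of 0.25 (95% interval -0.05 to 0.55). Asah1, the acid ceramidase, had 16.6 ± 6.19 and 17.8 ± 5.89 CPM, a log2 fold change of 0.10 (95% interval -0.38 to 0.58).

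Of the cholesterol genes, Npc1, the membrane partner in cholesterol export, ran from 58.9 to 85.4 CPM in naive (median 74.8) and from 55.0 to 76.8 CPM in demyelination libraries (median 73.1). The groups overlapped, with a log2 fold change of -0.08 (95% interval -0.33 to 0.17). Npc2, the soluble partner that hands cholesterol to it, ran from 51.6 to 77.9 CPM (median 64.5) and from 62.7 to 111 CPM (median 79.3), with 4 of 7 demyelination libraries above the naive range. Its log2 fold change of 0.37 (95% interval 0.06 to 0.68) did not pass after adjustment (adjusted p = 0.259). Lipa, the acid lipase that frees cholesterol from its esters, ran from 9.36 to 20.8 CPM (median 16.7) in naive and from 15.2 to 26.5 CPM (median 19.8) in demyelination libraries. The groups overlapped, with a log2 fold change of 0.27 (95% interval -0.10 to 0.64, adjusted p = 0.574).

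Tfeb, the regulator of the CLEAR elements, was one of the least abundant members tested. It ran from 0.795 to 5.33 CPM in naive (median 2.75) and from 2.37 to 5.56 CPM in demyelination libraries (median 3.597), with 1 of 7 above the naive range. Its log2 fold change of 0.39 had a 95% interval of -0.43 to 1.21, an interval that includes a doubling. Among the 28 tested genes that were not called in this comparison, 26 had an interval wholly within 1 log2 unit of no change, and 15 within 1.5-fold.

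**Figure D2:**
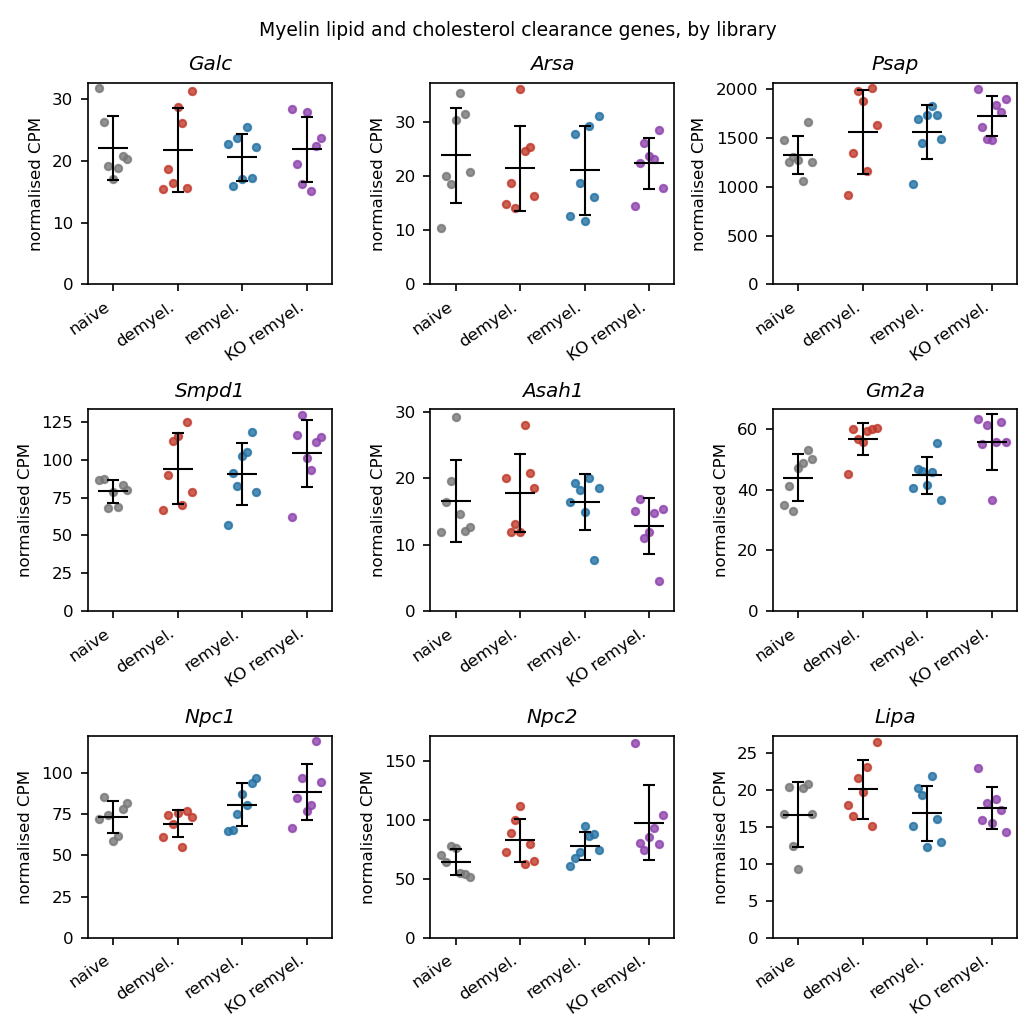
Level of 9 genes of sphingolipid and cholesterol clearance in each of the 28 libraries, in CPM on linear axes, by group. Points are libraries, and the bar with whiskers is the mean ± SD of 7 libraries. The groups overlap in each of the 4 comparisons, and Psap lies far above the other 8 genes in level.

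The remaining tested members did not pass the test in demyelination. Mcoln1 and Cln3, whose promoter windows hold the CLEAR core, had log2 fold changes of 0.09 (95% interval -0.41 to 0.59) and 0.32 (-0.25 to 0.89). Of the other tested genes with an E-box, Lamp1, with 4 copies, had 0.02, Arsa -0.19, Gaa 0.13 and Glb1 0.40. Tested genes whose window held no E-box ran from -0.18 (Ids) to 2.67 (Cd68), with Galc at 0.00, Scarb2 at 0.06 and Lamp2 at 0.10. Of the genes with an M-box core, Grn had 1.21, Ppt1 0.02 and Tpp1 0.08. The part of these motifs in the values was not tested. Among the abundant glycosidases, Gaa, which breaks down glycogen, had 0.13 (-0.16 to 0.42), and Neu1, the sialidase, had 0.00 (-0.27 to 0.27). Glb1, the beta-galactosidase, Fuca1, the fucosidase, and Idua, the iduronidase, had 0.40, 0.30 and 0.35, with intervals that all included 0.

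Ids, the iduronate sulfatase, was one of 4 tested members with a value below 0 in demyelination (-0.18, 95% interval -0.37 to 0.01). Tpp1, a peptidase, and Ppt1, a thioesterase, both known from childhood storage diseases of neurons, had 0.08 (-0.17 to 0.33) and 0.02 (-0.18 to 0.23). Pld3, a lysosomal nuclease, had 0.27 (0.00 to 0.54, adjusted p = 0.387). Scarb2, which carries glucocerebrosidase to the lysosome, had 0.06 (-0.19 to 0.32), and Laptm4a, a relative of Laptm5 that is not restricted to myeloid cells, had 0.18 (-0.01 to 0.36).

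**Figure D3:**
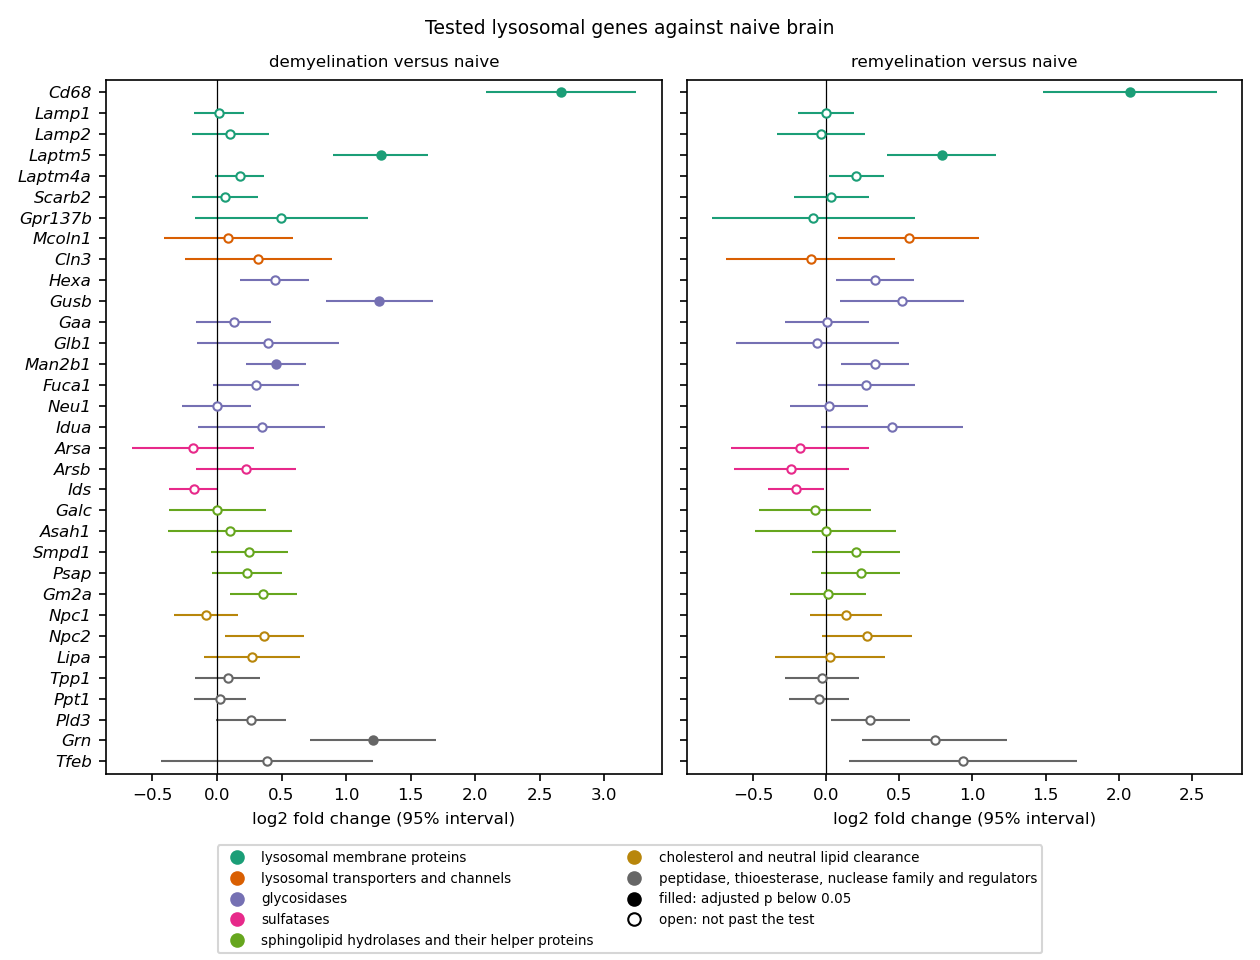
Log2 fold change of the 33 tested lysosomal genes against naive, in demyelination and in remyelination. Lines are 95% intervals and filled points are called at an adjusted p below 0.05. Cd68, Laptm5, Gusb, Grn and Man2b1 are filled in demyelination, and only Cd68 and Laptm5 of the 33 are filled in remyelination.

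In remyelination, 2 of the 33 tested genes, Cd68 and Laptm5, were still higher than in naive brain and 0 were lower (6.06% higher, against 0.451% of all genes tested, while 0.177% of all genes tested were lower). At an unadjusted p below 0.05 there were 11 of the 33, of which 10 were higher, against 10.4% of all genes tested. The median log2 fold change of the 33 genes was 0.03, against 0.00 over all genes tested. Cd68 ran from 6.30 to 14.5 CPM (median 10.7), wholly above the naive libraries, with a log2 fold change of 2.08 (SE 0.295, adjusted p = 1.54e-05). It was the 1 tested member whose remyelination and naive groups did not overlap, as held for 0.628% of all genes tested. Laptm5 ran from 29.9 to 48.7 CPM (median 35.3), with 4 of 7 libraries above the naive range. Its log2 fold change of 0.79 (SE 0.184, adjusted p = 0.0234) did not pass without naive library 1 (0.75, adjusted p = 0.0619, range over the alternatives 0.00283 to 0.0619).

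The other 3 genes that had risen lay between their naive and demyelination levels, and none was called against naive. Grn ran from 17.6 to 43.2 CPM (median 23.2), with 3 of 7 libraries above the naive range and a log2 fold change of 0.74 (95% interval 0.25 to 1.24, adjusted p = 0.189). Gusb ran from 10.1 to 19.9 CPM (median 15.4), 0.52 above naive on the log2 scale (adjusted p = 0.332). Man2b1 ran from 44.6 to 62.6 CPM (median 54.7), 0.33 above naive (adjusted p = 0.217). Tfeb had the second largest log2 fold change among these 33 genes, 0.93 (95% interval 0.15 to 1.72), with remyelination libraries from 3.30 to 12.2 CPM (median 4.40). The library with 12.2 CPM stood apart from the next, 6.20 CPM, and Tfeb did not pass after adjustment (adjusted p = 0.346). Most naive libraries lay below 5 CPM for Tfeb (median 2.75, highest 5.33 CPM). Tfeb thus passed the filter on low counts with the help of the groups where it is higher. Its value against naive and its rank are not independent of that filter.

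Between the peak of demyelination and remyelination, none of the 33 tested genes changed in the edgeR test (0 higher and 0 lower, against 0.201% and 0.185% of all genes tested). At an unadjusted p below 0.05 there were 7 of the 33, of which 6 were lower, and 6.65% of all genes tested. DESeq2 called 1 of the 33, Gusb, and 73 of all genes tested. Gusb was the gene nearest to the threshold. All of its remyelination libraries, 10.1 to 19.9 CPM, lay below all of its demyelination libraries, 20.4 to 31.8 CPM, as groups did not overlap in 0.322% of all genes tested. Its log2 fold change was -0.74 (SE 0.193, adjusted p = 0.0835). It passed in DESeq2 (adjusted p = 0.0248), without naive library 1 (adjusted p = 0.0298) and without both naive library 1 and knockout library 1 (adjusted p = 0.0232). Over the 12 alternatives its adjusted p ran from 0.0232 to 0.136.

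The other values below 0 at an unadjusted p below 0.05 were Cd68 (-0.59), Laptm5 (-0.48), Grn (-0.47), Arsb (-0.46) and Gm2a (-0.34), and Mcoln1 was the 1 above 0 (0.48). Arsb encodes arylsulfatase B, a sulfatase of glycosaminoglycans, and Mcoln1 a calcium channel of the lysosomal membrane. Their adjusted p-values were between 0.44 and 0.75. This comparison shares its libraries with both comparisons to naive brain, so the 3 sets of values are not independent of each other.

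With TNFR1 deleted from microglia, none of the 33 tested genes differed from the remyelination controls (0 higher and 0 lower in edgeR, against 0.0402% and 0.00805% of all genes tested, 0.0483% in all). At an unadjusted p below 0.05 there were 3 of the 33, all higher (Lamp1, Gm2a and Npc2), a share near the 7.49% of all genes tested, and DESeq2 called 0. The 95% intervals of all 33 genes lay within 1 log2 unit of no change, and those of 26 within 1.5-fold. The median log2 fold change was 0.08, against 0.00 over all genes tested, and 25 of the 33 values were above 0.

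The genes raised in demyelination did not differ beyond their spread between the 2 remyelination groups. Cd68 had 10.9 ± 3.37 CPM in controls and 10.8 ± 2.99 CPM in the knockout (SD, n = 7 each), and its knockout libraries ran from 8.47 to 15.1 CPM (median 9.28). The knockout differed by -0.03 on the log2 scale (95% interval -0.52 to 0.46). Laptm5 ran from 26.0 to 61.9 CPM in the knockout (median 43.4), Gusb from 10.9 to 16.8 CPM (median 13.0), Man2b1 from 44.3 to 68.1 CPM (median 49.98) and Grn from 14.9 to 34.0 CPM (median 23.7). Their log2 fold changes were 0.17 (95% interval -0.18 to 0.52) for Laptm5, -0.12 (-0.53 to 0.28) for Gusb, -0.03 (-0.26 to 0.19) for Man2b1 and -0.04 (-0.50 to 0.43) for Grn. In each of these genes the knockout and control libraries overlapped. So they did in the other tested members, while 0.129% of all genes tested had no overlap.

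Of the lipid-clearing genes, Npc2 ran from 74.1 to 165 CPM in the knockout (median 85.5) and from 60.9 to 94.9 CPM in controls (median 74.4). The groups overlapped, and the log2 fold change of 0.33 (95% interval 0.03 to 0.63, adjusted p = 0.645) was 0.16 without knockout library 1, which held the 165 CPM. Gm2a was 0.32 higher on the log2 scale (95% interval 0.06 to 0.57, adjusted p = 0.574), with 5 of 7 knockout libraries above the control range and 1 below it. Lamp1 was 0.24 higher (95% interval 0.05 to 0.43, adjusted p = 0.577) with 5 of 7 above, and 0.17 higher without knockout library 1. Galc ran from 15.2 to 28.4 CPM in the knockout (median 22.3), against 15.9 to 25.4 CPM in controls (median 22.2), a log2 fold change of 0.08 (95% interval -0.30 to 0.46).

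Psap ran from 1480 to 2003 CPM in the knockout (median 1766) and from 1027 to 1826 CPM in controls (median 1696). It had 1727 ± 205 CPM in the knockout and 1566 ± 275 CPM in controls, with a log2 fold change of 0.14 (95% interval -0.13 to 0.41). Npc1 had 88.5 ± 17.1 and 80.7 ± 13.0 CPM, with 0.14 (95% interval -0.11 to 0.38). Arsa had 22.3 ± 4.76 and 21.01 ± 8.16 CPM, with 0.07 (95% interval -0.41 to 0.54). Lipa had 17.6 ± 2.85 and 16.8 ± 3.74 CPM, with 0.04 (95% interval -0.33 to 0.41). Tfeb ran from 1.60 to 10.9 CPM in the knockout (median 6.14) and from 3.30 to 12.2 CPM in controls (median 4.40), with 0.08 (95% interval -0.64 to 0.79). None of these passed, and the controls and the knockout overlapped in each.

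**Figure D4:**
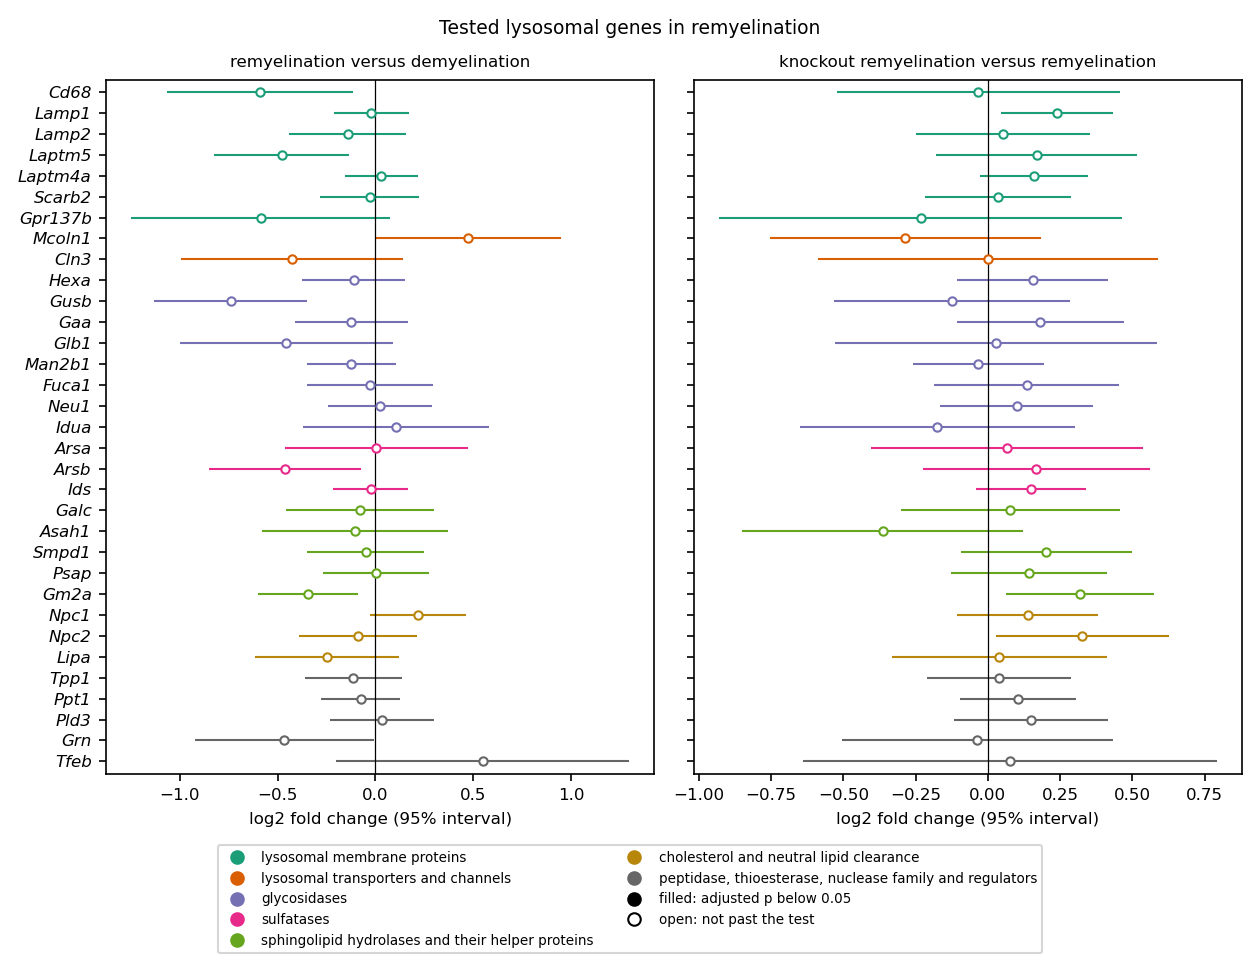
Log2 fold change of the 33 tested lysosomal genes in remyelination against demyelination and in the knockout against the remyelination controls. Lines are 95% intervals, and no point is filled because no gene passed an adjusted p of 0.05. Gusb lies furthest below 0 in the first comparison, and the knockout intervals all stay within 1 log2 unit of 0.

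The 5 members below the filter on low counts were read from a fit of 26337 genes with no such filter. Slc11a1 (ENSMUSG00000026177.12), a metal transporter of phagosome membranes in macrophages, had 13 counts over the naive libraries and 65 over the demyelination libraries. Its naive libraries ran from 0.462 to 1.65 CPM (median 0.970) and its demyelination libraries from 2.06 to 6.75 CPM (median 4.70), with no overlap. In that fit it was 2.15 higher on the log2 scale (SE 0.572, adjusted p = 0.0264). That fit called 211 of its 26337 genes higher and 89 lower in demyelination than in naive brain. The share of its genes without overlap was not computed. It had 33 counts in remyelination and 53 in the knockout, with no call in any other comparison. Naglu, Ctns, Manba and Sgsh did not pass in any of the 4 comparisons of that fit.

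Of 88 other lysosomal genes listed, which stand outside the 38, 87 were in the tables and 79 were tested. In demyelination 4 of the 79 were higher than in naive brain and 0 were lower, 5.06% against 1.30% of all genes tested. Among them were Cd63, a tetraspanin of late endosomes (0.57 on the log2 scale, adjusted p = 0.00885), and Rnaset2b, a ribonuclease (0.76, adjusted p = 0.0399). Rnaset2b has the near-identical copy Rnaset2a, so its count is uncertain. The 19 tested subunits of the V-ATPase, the pump that makes the lysosome acidic, had 0 calls in edgeR, 0 in DESeq2 and 0 at an unadjusted p below 0.05, with a median log2 fold change of 0.03. The 15 tested genes of the TFEB family and its control had 0 calls in either tool and 1 at an unadjusted p below 0.05, and the 6 genes of sorting to the lysosome likewise had 0 and 1. In remyelination 1 of the 79 was higher than in naive brain and 0 were lower, 1.27% higher against 0.451% of all genes tested. At an unadjusted p below 0.05 there were 9 of the 79 in demyelination and 6 in remyelination, each against naive brain. Over all genes tested the shares at an unadjusted p below 0.05 were 13.3% and 10.4%. Between demyelination and remyelination 0 of the 79 were called in edgeR or DESeq2, with 4 at an unadjusted p below 0.05, and in the knockout 0, with 7. Both counts are near the shares of all genes tested, 6.65% and 7.49%.

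Markers of the cell types in the tissue were read from the same fit. Of the 13 microglial genes, 7 were still higher in remyelination than in naive brain, against 0.451% of all genes tested. Among the 13, 1 is also in the list of other hydrolases. The sum of the 13 was 357 to 438 CPM in the remyelination controls and 327 to 438 CPM in the knockout libraries. Between demyelination and remyelination 0 of the 13 changed in edgeR, with 7 at an unadjusted p below 0.05 and 2 lower in DESeq2, while 8 of the 9 oligodendrocyte genes were higher. Of 7 astrocyte genes 1, Gfap, was higher in demyelination. The 8 neuronal genes, which mark the tissue as brain, summed to 4903 to 5886 CPM over all libraries, and 0 changed in demyelination in edgeR, in DESeq2 or at an unadjusted p below 0.05. Of 5 endothelial genes 0 changed in edgeR or DESeq2, with 2 at an unadjusted p below 0.05. The 10 genes of border macrophages, monocytes and neutrophils summed to at most 29.7 CPM in any library, with Ly6g at 0 counts in every group and Ccr2 at 0 in naive. The 7 lymphocyte genes summed to at most 3.59 CPM. The part of these markers, too, was not tested.

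Set against the sum of the 13 microglial genes in the same library, a description chosen after the values were seen and not tested, the raised genes gave different values. The lysosomal genes are not part of that sum, so the percentages are ratios to it and not shares of it. Cd68 stood at 0.578 to 1.70% of the sum in naive and at 2.01 to 3.93% in demyelination libraries, with no overlap. The share of all genes without overlap on this scale was not computed. Gusb stood at 4.36 ± 1.52 and 5.04 ± 1.15% (SD, n = 7 each), Grn 6.47 ± 2.82 and 6.80 ± 1.74%, and Laptm5 9.13 ± 3.38 and 10.1 ± 2.05%, with groups that overlapped. Slc11a1, with few counts, stood at 0.418 ± 0.199 and 0.902 ± 0.372%. Man2b1 had a lower ratio in demyelination, 18.2 ± 3.56 against 11.6 ± 0.782%. So did 2 genes that were not called, Galc with 9.29 ± 2.38 against 4.37 ± 1.69% and Psap with 563 ± 114 against 303 ± 64.6%. The sum itself rose from a mean of 240 CPM in naive to 512 CPM in demyelination libraries. Any gene that was flat or rose by a smaller factor has a lower ratio by arithmetic alone. In the knockout, 1 of the 13 microglial genes was lower, Cx3cr1, which is the locus that carries Cre in these mice.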

How the data were processed

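Total RNA of whole brain was made into QuantSeq libraries. Each library has a gene table whose expected counts, estimates of reads per gene that need not be whole, were deposited by the authors unnormalised, per the file headers. RSEM, STAR, edgeR, cutadapt and FastQC are named in the submitters' processing notes, with build GRCm39. Settings, annotation and strand handling are not given in these sources, so genes overlapping on opposite strands are uncertain. Between 96.59 and 97.69% of expected counts per library were whole within 0.005, and all were rounded.

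Symbols came from GENCODE M21 (GRCm38) by identifier, which matched 52081 of 55414 genes. Genes without a symbol held 10.76% of counts. Counts were scaled by TMM and filtered with filterByExpr, which left 12423 genes, and tested in edgeR 4.0.16 (limma 3.58.1, R 4.3.3) in 1 quasi-likelihood fit of all 28 libraries with 4 group means. DESeq2 1.42.0 was an alternative, 1 of 12. The script was tested on simulated data. Each SE was derived from the log2 fold change and its test statistic. The intervals cover the spread between these libraries as the fit estimates it, and the floor of 3 counts covers counting error only. The common biological coefficient of variation was 19.5%. No library pair within a group was a duplicate (smallest chi-square per degree of freedom 2.53). Pairs between groups were not checked.

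The members and lists were chosen with earlier results of these data known. Over the libraries of a group, the range with the median or the mean ± SD is given for called members and for Galc, Arsa, Psap, Npc1, Npc2, Lipa, Grn and Tfeb. Members carry no adjustment of their own. Some genes of the other lists are not reported here by name.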

Additional observations from a re-analysis of the deposited data

Results flagged for a closer look

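In 152 sets of 7 libraries (38 genes in 4 groups), the highest or lowest library was set apart from the rest of its group in 11, and chance alone sets apart about 1 in 20. Of these 11, 4 were in knockout library 1: Scarb2 at 171 CPM (group median 104), Gpr137b at 9.06 (median 3.65) and Npc2 at 165 (median 85.5) were the highest, and Fuca1 at 21.1 (median 36.0) was the lowest. Gm2a was lowest in 2 groups, at 45.2 CPM in demyelination library 1 (median 59.3) and at 36.6 CPM in knockout library 4 (median 55.9). Remyelination library 6 held the lowest Asah1, 7.76 CPM (median 18.2), and the highest Tfeb, 12.2 CPM (median 4.40). Naive library 7 held the highest Laptm5, 34.9 CPM (median 19.8), and naive library 5 the highest Idua, 15.0 CPM (median 8.09). Demyelination library 4 held the highest Manba, 5.39 CPM (median 2.06), a gene below the filter on low counts.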

How the results depend on the processing

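The count of 5 lysosomal genes higher in demyelination than in naive brain held for the same 5 genes in 10 of 12 alternatives. Among the 12, the filter of at least 5 CPM in at least 7 libraries gave as many calls as the main fit in every comparison. It also left the same number of genes, 12423, so its agreement is no separate check. In DESeq2 the count was 6, with Hexa added. With no filter on low counts it was 4 of the 33, without Man2b1, and 5 only with Slc11a1, which is outside the 33. In remyelination against naive the count was 2, and it was 1 to 2 when naive library 1 or knockout library 1 was left out. In remyelination against demyelination 0 were lower, 1 in DESeq2, 1 with both of those libraries left out, and 0 to 1 with either left out. Over all genes, remyelination against naive had 78 calls, 122 with no filter on low counts, 130 in DESeq2, 147 with the replicate block and 147 with each library's mitochondrial share in the model. Remyelination against demyelination had 48 and 73 in DESeq2. The knockout had 6, 28 with no filter and 11 in DESeq2. The causes were not tested. Scaling by library totals turned the demyelination split from 162 higher and 87 lower into 192 and 59, and moved the median of all genes by at most 0.04 on the log2 scale.

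Replicate numbers are shared between groups. Same-numbered libraries had correlations of -0.131 to 0.302 in their deviations and correlated best with their own number in 1 to 3 of 7 cases. These values show no clear pairing, but they cannot exclude a factor shared by some same-numbered libraries. The replicate block left the lysosomal counts at 5 and 2. Over all genes it took the calls against naive from 249 to 342 in demyelination and from 78 to 147 in remyelination. Depth limits the least abundant members: the interval of Tfeb includes a doubling in both comparisons with naive brain.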
